A study of Mus musculus with 172 samples.

Results

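The cortical transcriptional response to sleep deprivation (SD) was compared between 33 BXD/RwwJ lines of mice, line by line. The members were the 66 cortex libraries of these lines, 33 from undisturbed controls (Ctr) and 33 from sleep-deprived mice, out of 172 libraries in the series. They were chosen by line name: every BXD line except BXD05, BXD29, BXD29t and BXD32, the 4 BXD/TyJ lines, which were used here only as further values. Each library was made from messenger RNA of the cortex of male mice, pooled by line and condition. SD lasted 6 h from light onset and tissue was taken at its end, ZT6, and Ctr mice were killed at the same clock time. BXD lines are recombinant inbred lines, each of which carries a fixed mosaic of the C57BL/6J (B6) and DBA/2J (D2) genomes. Besides the 33 lines there were 2 pools each of B6 and D2 and 1 pool each of the reciprocal B6 by D2 F1 crosses (BD-F1 and DB-F1), in both conditions.

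For each line and each of 14896 genes, the change was the level in the SD pool minus that in the Ctr pool, in log2 CPM (read counts scaled to the size of the library), so a change of 1 is a doubling. Since each line had 1 pool per condition, no spread within a BXD line could be measured. The noise of a change was therefore taken from the repeated B6 and D2 pools and moderated over all genes. With 2 residual and 18.6 prior degrees of freedom, the noise of a single gene rests mostly on genes of similar level. The p-values measure the spread between lines against this moderated spread between pools. A pool averages over its mice, the labels of 3 lines (BXD79, BXD85 and BXD101) give fewer mice, and in bulk tissue fewer cells of a type and less RNA per cell cannot be told apart. Cortex libraries held between 19746305 and 28998853 reads in Ctr and between 19025159 and 27294151 in SD. The cortical label fitted the markers: 9 of 9 markers of cortical excitatory neurons were measured, and their summed level lay between 7140 and 9086 CPM in all 66 libraries, whereas of 8 hepatocyte markers only Ttr, which choroid plexus also makes, was listed.

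Wakefulness changes cortical expression along several known routes. Neuronal activity induces, within minutes to hours, transcription factors such as Fos and Egr2 and the synaptic effector Arc. The stress of enforced waking raises corticosterone, whose receptor binds DNA and induces genes such as Fkbp5, Sgk1 and Plin4. Prolonged waking also engages chaperones of the endoplasmic reticulum (ER), among them Hspa5 (BiP), and brain temperature acts on Cirbp, an RNA-binding protein induced by cold. These routes were followed through lists of genes, beside lists of markers for other cell types and neighbouring brain regions.

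Several libraries stood apart before any test. In the Ctr library of BXD90 the log2 level rose by 0.152 for each 10 percentage points of gene GC content and fell with transcript length, with a slope of -0.205 per doubling. The next highest GC slope among the Ctr libraries of the 33 lines was 0.0675 and the median was -0.0032. The SD library of BXD90 had slopes of -0.0653 and 0.0164. Genes of long, AT-rich transcripts were thus low in 1 of the 2 pools from which the change of BXD90 was made. In addition, the Ctr pools of BXD89, BXD56 and BXD97 already lay part of the way towards SD in the measure of response size described below. Whether any of these pools was handled differently or exchanged was not tested, and the extreme values of BXD89 and BXD56 below rest on those single pools. For these reasons the number of members of a list past the F test is given also without BXD90 and without BXD56, BXD89 and BXD90 together, a choice made after the data had been seen.

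The lines differed in their response at 1517 of 14896 genes, 10.2% of those tested (moderated F test over 33 lines in limma, Benjamini-Hochberg adjusted p under 0.05). At an unadjusted p under 0.05 there were 3280. Without BXD90 the count was 687 genes (4.61%), and without BXD56, BXD89 and BXD90 it was 306 (2.05%). The count depended on the processing: it was 0 without a variance trend (1266 at an unadjusted p under 0.05), 866 with the F1 pools as a further repeated pair and 446 of 13772 after correction for GC content and length. Of the 1517 genes, 928 had a mean change above 0 and 589 below 0. The mean change over the 33 lines itself was above 0 at 5261 genes (35.3%) and below 0 at 5690 (38.2%) in the test of the mean, and 1150 of the 1517 genes (75.8%) passed that test too. Of the 1517 genes, 257 changed with the same sign in all 33 lines, a description, since the share among all genes is not given here. A further description is the line that lay farthest from the median of the lines: for 740 of the 1517 genes (48.8%) this was BXD90, for 333 (22%) BXD56, for 122 (8.04%) BXD89 and for 65 (4.29%) BXD97. Over all genes BXD90 was farthest for 31.1%.

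**Figure D1:**
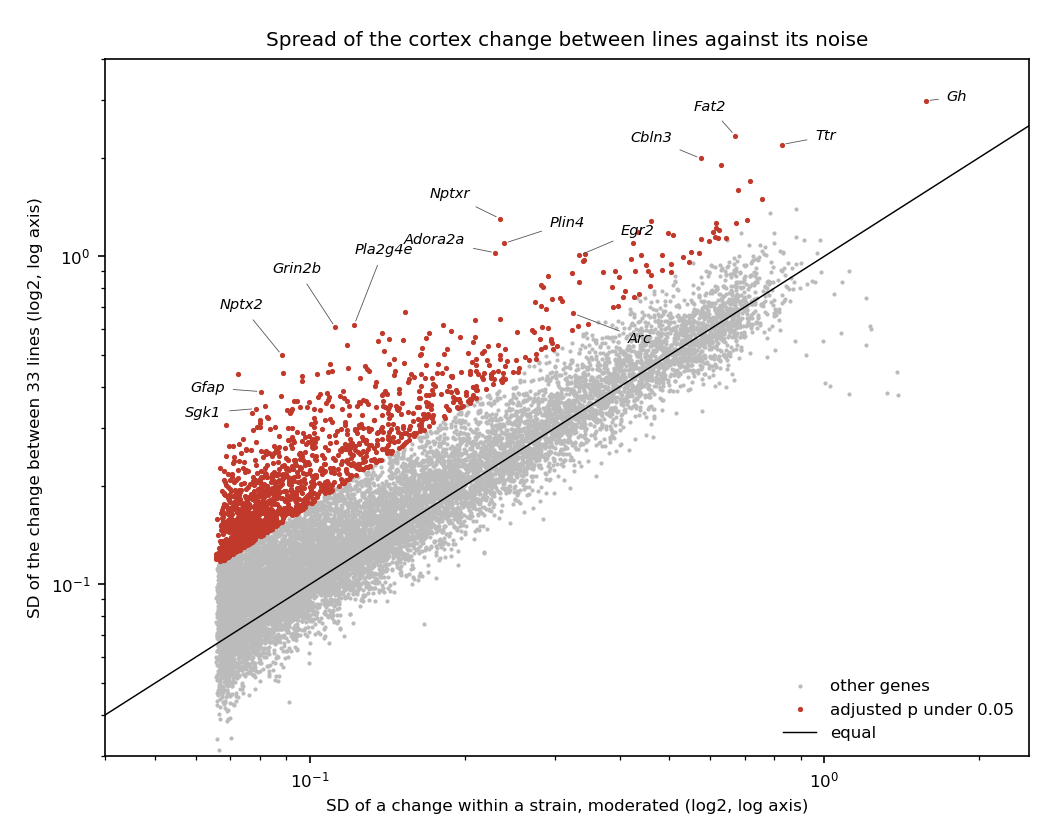
Each point is 1 of 14896 genes. The horizontal axis is the standard deviation of a change between repeated pools of a parental strain (moderated, log2 units, log axis), the vertical axis that of the change between the 33 lines, and the line marks equality. The 1517 genes past the threshold are red; Nptx2, Nptxr, Grin2b and Pla2g4e lie among those farthest above the line for their noise.

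The typical gene varied little more between lines than between repeated pools. The median standard deviation of the change between lines was 0.146 against a median noise of 0.116, of which counting error alone accounts for 0.0901 at the median. The ratio of the standard deviation between lines to the noise had a median of 1.12 over all genes and 2.06 over the 1517. The smallest ratio past the threshold was 1.74. In the scatter of spread against noise, genes of low expression had both large, and the standard deviation between lines was larger where the noise was larger (Spearman's rho across genes 0.851; genes are not independent replicates). A set of 213 genes passed in 5 fits: with all lines, without BXD90, without the 3 lines, after correction for GC content and length, and after removal of overall response size. It held 22 of the 25 genes with the largest F.

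Response size, taken over all genes, ranged from 0.270 to 1.21 between lines. It was measured as the slope of a line's changes, over all genes, on the mean changes of the other 32 lines, so that 1 is a response of average size. The lowest value was 0.270 in BXD89, followed by 0.706 in BXD45, 0.738 in BXD56, 0.748 in BXD97, 0.766 in BXD87 and 0.824 in BXD98. The median was 0.989, the quartiles 0.921 and 1.06, and the highest value 1.21 in BXD44. Thus 27 of 33 lines lay between 0.8 and 1.2, 5 below and 1 above. The standard deviation between lines was 0.180, or 0.130 without BXD89, against 0.0868 within the repeated parental strains, a ratio of 2.07, or 1.5 without BXD89. The repeated pools gave 1.08 and 1.04 for B6 and 1.02 and 1.19 for D2, and both F1 pools gave 1.08. The BXD/TyJ lines lay between 0.938 and 1.18. Neither the spread of response size between lines nor differences between single lines were tested.

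**Figure D2:**
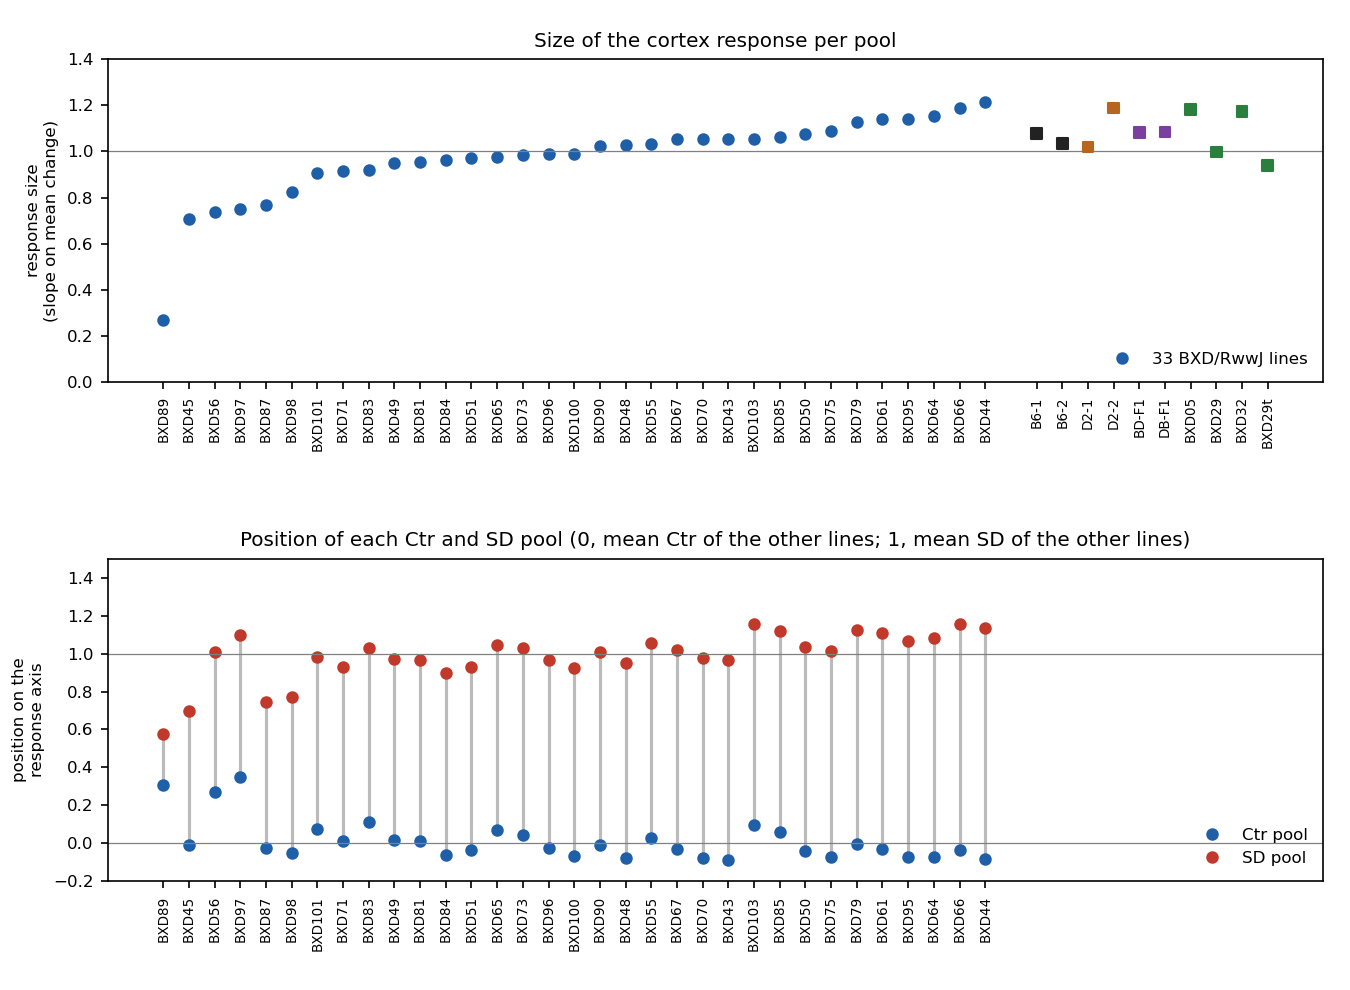
Top, response size of each pool pair (slope on the mean change of the other BXD/RwwJ lines, no unit): circles are the 33 lines in increasing order, squares the parental, F1 and BXD/TyJ pools. Bottom, for the same order of lines, the position of the Ctr pool (blue) and of the SD pool (red) between the mean Ctr (0) and the mean SD (1) of the other lines. BXD89 is lowest at 0.270, with its Ctr pool high and its SD pool low.

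The lines at the low end differed in where their pools stood. Each pool was placed on the axis from the mean Ctr (position 0) to the mean SD (position 1) of the other lines. In BXD89 the Ctr pool stood at 0.305 and the SD pool at 0.575, the lowest SD position of all 33. The Ctr pools of BXD97 and BXD56 stood at 0.351 and 0.270, but their SD pools at 1.10 and 1.01 were near the average. BXD45, BXD87 and BXD98 showed the converse, with Ctr positions of -0.010, -0.024 and -0.052 and SD positions of 0.696, 0.743 and 0.772. In the other 27 lines Ctr positions lay between -0.087 and 0.109. These are descriptions of single pools.

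Of 13 relations of response size with other measures over the 33 lines, those with library depth were not detected (Pearson's r = 0.195 for Ctr depth, permutation p = 0.273, adjusted p = 0.355, and r = 0.0206 for SD depth, p = 0.911, adjusted p = 0.92). Response size in the liver of the same lines ranged from 0.439 (BXD50) to 1.29 (BXD95) with a median of 0.890, and BXD89 was second lowest at 0.612. It was related to response size in cortex with r = 0.438 (permutation p = 0.0102, adjusted p = 0.022) and Spearman's rho = 0.466 (permutation p = 0.00682, adjusted p = 0.0177). Without BXD45 and BXD89, the lines farthest from the median, r was 0.316 (permutation p = 0.0847, adjusted p = 0.173) and rho 0.385, and the relation no longer passed. Without BXD70, whose liver SD library stood apart as described with the liver results, r was 0.432 and rho 0.457 (permutation p = 0.0135 and 0.00935).

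The median change of each gene list was set against the response size computed without that list's genes. It followed response size most closely for ER chaperones (r = 0.884, permutation p = 1e-05, the smallest the permutations can give, adjusted p = 4.3e-05, rho = 0.747, permutation p = 1e-05, and r = 0.786 without BXD45 and BXD89). Heat shock proteins (r = 0.763, rho = 0.672, permutation p = 1e-05 and 5e-05, and 0.609 without those lines) and activity-regulated genes (r = 0.753, rho = 0.605, permutation p = 1e-05 and 0.00026, and 0.626 without them) came next. The glucocorticoid-responsive list gave r = 0.637 (rho = 0.511, permutation p = 8e-05 and 0.00274, and 0.448 without them). The list of cold-inducible and splicing proteins gave r = 0.516 (rho = 0.359, adjusted permutation p = 0.00426 and 0.0878) and no longer passed without those lines (r = 0.358, adjusted permutation p = 0.123). Medians of clock genes (r = 0.0183), cholesterol synthesis (r = -0.255), the respiratory chain (r = -0.120), MHC and interferon genes (r = -0.206) and the genes named for BXD variants (r = 0.191) had adjusted permutation p between 0.28 and 0.92. Response size and list medians come from the same libraries.

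Activity-regulated genes varied between lines as a group. Of 30 genes of this list, 27 passed the F test, 26 without BXD90 and 20 without BXD56, BXD89 and BXD90. The shares of all genes were 10.2%, 4.61% and 2.05%. All 33 lines had a median change of the list above 0, from 0.284 in BXD89 to 1.71 in BXD96, with a median of 1.2. The lines thus differed in the size of an induction rather than in its direction, at the level of the list.

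Arc, an effector of synaptic scaling on chromosome 15 (mm9 15:74499513-74503000), lay between 5.6 (BXD95) and 8.16 (BXD89) log2 CPM in Ctr, median 6.32, and between 8.68 (BXD89) and 10.1 (BXD44) in SD, median 9.30. The 2 ranges did not overlap over the 33 lines, although BXD89 had the highest Ctr and the lowest SD level. Its change ran from 0.52 in BXD89 to 4.16 in BXD44, a ratio to the noise of 2.06 (adjusted p = 0.0106), and did not pass without the 3 lines (adjusted p = 0.193). Fos, a subunit of the AP-1 factor, changed by 0.04 in BXD89, where it went from 5.32 to 5.36 log2 CPM, and by 4.04 in BXD67, with a mean of 2.23. Egr2, an inducible zinc finger factor, changed by 0.32 in BXD89 and 5.00 in BXD44, with a mean of 3.02, and its spread between lines was larger in Ctr (standard deviation 0.845) than in SD (0.389, adjusted p = 0.00481). Among the AP-1 genes Fosl2 had the largest ratio, 4.05, with a mean change of 1.44 and changes from 0.20 (BXD89) to 2.22 (BXD67). Fosb followed with a ratio of 3.70. Egr3, no AP-1 gene, had a ratio of 3.71, and both Fosb and Egr3 passed without the 3 lines (adjusted p = 0.00109 and 0.00108).

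Nptx2 was among the 25 genes with the largest F. It encodes neuronal pentraxin 2, a secreted protein that clusters AMPA receptors at excitatory synapses, and lies at mm9 5:145306756-145318347. Its Ctr level was 7.24 log2 CPM in BXD56 and at most 5.73 in the other 32 lines, with a lowest value of 4.84 and a median of 5.32. Its SD level ran from 5.71 (BXD89) to 7.25 (BXD44), median 6.18, so BXD56 was high in Ctr and, at 5.77, among the lowest in SD. The change was -1.47 in BXD56 and between 0.40 and 1.55 in the others, with a mean of 0.858. The ratio to the noise was 5.66, 2.92 without the 2 farthest lines, and adjusted p = 0.000684 without the 3 lines. The same BXD56 Ctr pool was also the highest of 33 for Bdnf (6.24), a neurotrophin, Inhba (4.14), a subunit of activin, Gadd45b (4.72), Cdkn1a (6.10), the cell cycle inhibitor p21, and Chga (8.31), a granule protein of neuroendocrine cells. Gfap, the intermediate filament of reactive astrocytes, stood at 9.29 in that pool against at most 8.06 in other Ctr pools, and at 7.89 in the SD pool of BXD56, again the highest. Changes of these genes in BXD56 were -1.40 for Gfap, -1.26 for Chga, -0.58 for Cdkn1a and -1.04 for Inhba, and markers of hippocampus summed to 496 CPM in the same Ctr pool, the highest of 33 (median 317). That pool was also the highest for markers of striatum (564 CPM, median 378), thalamus (148, median 113) and meninges (771, median 626) and the lowest for those of cortical excitatory neurons (7140, median 8038). Other activity-regulated genes went the other way in BXD56. Nr4a1 stood at 5.335 in the same Ctr pool, the lowest of 33, and rose by 2.22. Npas4, Egr1 and Nr4a3 rose by 2.00, 1.91 and 1.85 in that line. The part of the composition of this pool in these values was not tested.

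**Figure D3:**
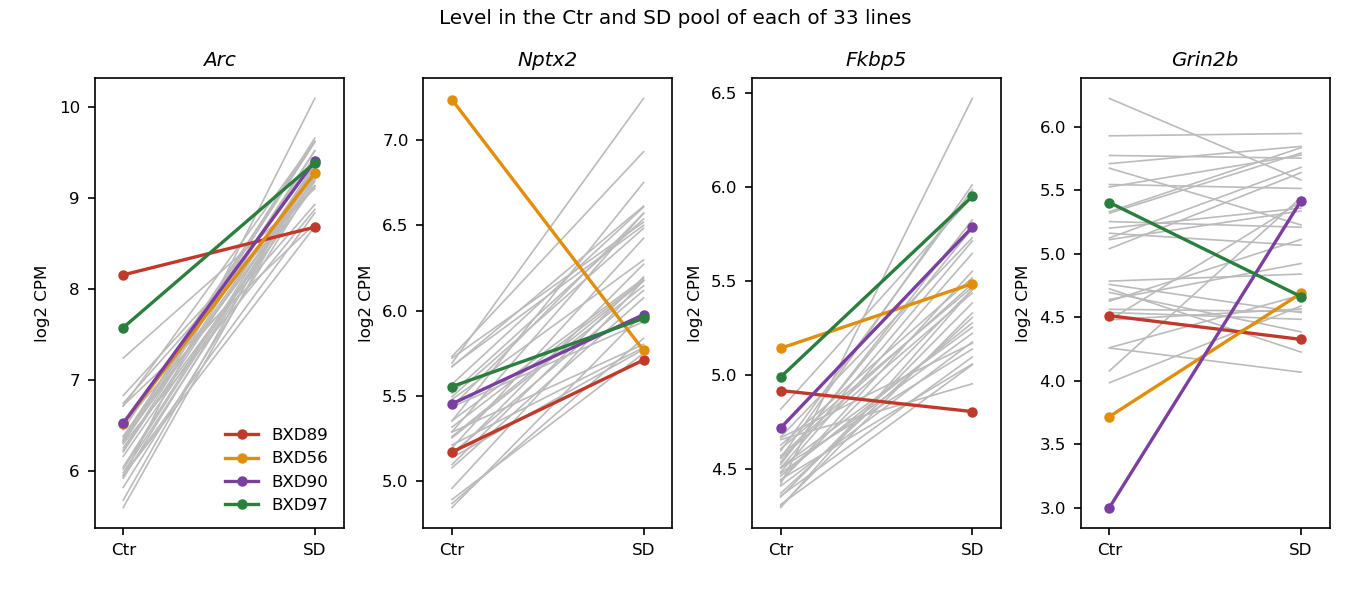
Level (log2 CPM) in the Ctr and SD pool of each of the 33 lines, joined by a line, for Arc, Nptx2, Fkbp5 and Grin2b. BXD89 (red), BXD56 (orange), BXD90 (purple) and BXD97 (green) are coloured: Arc changed from 8.16 to 8.68 in BXD89, Nptx2 from 7.24 to 5.77 in BXD56 and Grin2b from 3.0 to 5.42 in BXD90.

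The second principal component of the changes held 9.88% of their variance and set BXD56 and BXD89 apart. It was not the activity-regulated list as a whole. In BXD56, the line of lowest score, the median change of that list was 1.02, against a median of 1.2 over the lines. Its 10 genes of largest weight, all of 1 sign, were Egr2, Inhba, Car12, Fos, Cdkn1a, Gadd45b, Fosb, Arc, Ret and Nptx2. Car12, a carbonic anhydrase, Ret, the receptor of glial neurotrophic factors, and Cdkn1a are no members of the activity-regulated list. Their changes were lowest in BXD56 for Inhba, Car12 (-1.38), Cdkn1a, Gadd45b (-1.11), Ret (-1.55) and Nptx2, and lowest in BXD89 for Egr2, Fos, Fosb and Arc. Scores ran from -21.1 (BXD56), -12.6 (BXD89) and -8.83 (BXD97) to 4.64 (BXD55). Over the 33 lines the score had a Spearman correlation of 0.775 with response size, a description, since both are computed from the same changes.

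Glucocorticoid-responsive genes were the other large group. Of 23 measured members 20 passed the F test, 18 without BXD90 and 13 without the 3 lines, against 10.2%, 4.61% and 2.05% of all genes, and the median ratio to the noise was 2.33. In the mean response 22 of 23 rose and 1 fell (35.3% and 38.2% of all genes). The list median was above 0 in all 33 lines and ran from 0.0145 in BXD89 to 1.08 in BXD95. The receptor for these hormones binds paired hexamers, written here as GNACA and TGTNC with 3 free bases between them, which reads the same on both strands. The motif was found from 250 bases before to 50 after the start site in 4 of 18 members past the threshold. These 18 had a promoter entry in RefSeq, and of all 27025 gene symbols with one, 0.537% held the motif. The 4 windows are shown because their genes recur below, with the motif in capitals and 20 bases on either side, 5′ to 3′ on the strand of the gene.
Sgk1: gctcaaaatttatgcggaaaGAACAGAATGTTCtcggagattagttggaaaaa
Fam107a: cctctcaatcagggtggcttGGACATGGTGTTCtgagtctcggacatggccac
Map3k6: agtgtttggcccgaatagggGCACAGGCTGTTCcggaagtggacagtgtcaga
Mt1: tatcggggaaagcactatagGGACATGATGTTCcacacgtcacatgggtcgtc
On GRCm38.p6 these are chr10:21993682-21993734 (plus strand), chr14:8309865-8309917 (minus), chr4:133240617-133240669 (plus) and chr8:94178975-94179027 (plus), with the first base of the motif at -188, -118, -181 and -94 from the start. A match is a description of letters and not a measured site.

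Sgk1, a kinase that regulates ion channels, differed little between lines in Ctr and widely in SD. In Ctr it lay between 5.89 and 6.25 log2 CPM, median 6.06, and in SD between 6.09 (BXD89) and 7.29 (BXD55), median 6.59. The standard deviation between lines was 0.0791 in Ctr and 0.339 in SD (Pitman-Morgan test of paired variances, adjusted p = 2.3e-08). Its change ran from -0.06 (BXD89) to 1.25 (BXD55) with a ratio to the noise of 4.37. Spread was also larger in SD than in Ctr for Fkbp5 (0.362 and 0.196, adjusted p = 0.036), Tsc22d3 (0.340 and 0.168, adjusted p = 0.013), Ddit4 (0.272 and 0.121, adjusted p = 0.0042), Arrdc2 (adjusted p = 0.0258) and Sult1a1 (adjusted p = 0.002), so 6 of the 23 members, against 0.792% of all genes. One member, Cdkn1a, had the larger spread in Ctr (0.529 and 0.259, adjusted p = 0.0107), against 2.4% of all genes. Of 30 activity-regulated genes, Egr2 alone passed, with the larger spread in Ctr.

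Plin4, a protein of lipid droplets, had the widest range of the list. It lay between -0.39 (BXD96) and 3.15 (BXD97) log2 CPM in Ctr, median 0.86, and between 1.41 (BXD51) and 5.35 (BXD95) in SD, median 3.62, so the groups overlapped. The change was above 0 in every line, 0.48 in BXD89 and up to 5.07 in BXD95, with a mean of 2.54 and a ratio to the noise of 4.59. Fkbp5, a co-chaperone of the glucocorticoid receptor (mm9 17:28536040-28654469), lay between 4.29 and 5.14 (BXD56) in Ctr and between 4.80 (BXD89) and 6.47 (BXD95) in SD, and changed by -0.11 in BXD89 and by 2.05 in BXD95. BXD89 and BXD95 were also the extremes for Map3k6 (0.27 and 2.86), a stress kinase, Hif3a (0.20 and 2.34), a hypoxia factor, and the metal-binding Mt1 (-0.07 and 0.80). Those 3 genes passed without the 3 lines too (adjusted p = 0.0187, 0.00886 and 0.0106). Fam107a, an actin-associated protein, changed by 0.18 (BXD89) to 1.23 (BXD64). Dio2, the deiodinase that activates thyroid hormone and no member of the list, was also among the 25 genes with the largest F, with changes from 0.60 (BXD89) to 1.94 (BXD75). Zbtb16, a transcription factor, changed by 0.09 (BXD101) to 1.81 (BXD90) and had adjusted p = 0.00265 without them.

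Over the lines, the changes of these groups moved together within each list more than between lists. The median Pearson correlation between pairs of members past the threshold was 0.522 within the activity-regulated list and 0.502 within the glucocorticoid list, but 0.174 between the 2 lists (genes in both left out) and 0.0783 among all 1517 genes. Over the 30 lines without BXD56, BXD89 and BXD90 these values were 0.527, 0.510, 0.0258 and 0.0453. Examples over the 33 lines were Plin4 with Fkbp5 (r = 0.838), Sgk1 with Tsc22d3 (r = 0.820), Arc with Fos (r = 0.851) and Sgk1 with Nptx2 (r = -0.0259). These correlations share libraries and are given without a test. In the heat map of changes, BXD89, at the low end of the order, had the lowest list median for both groups.

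**Figure D4:**
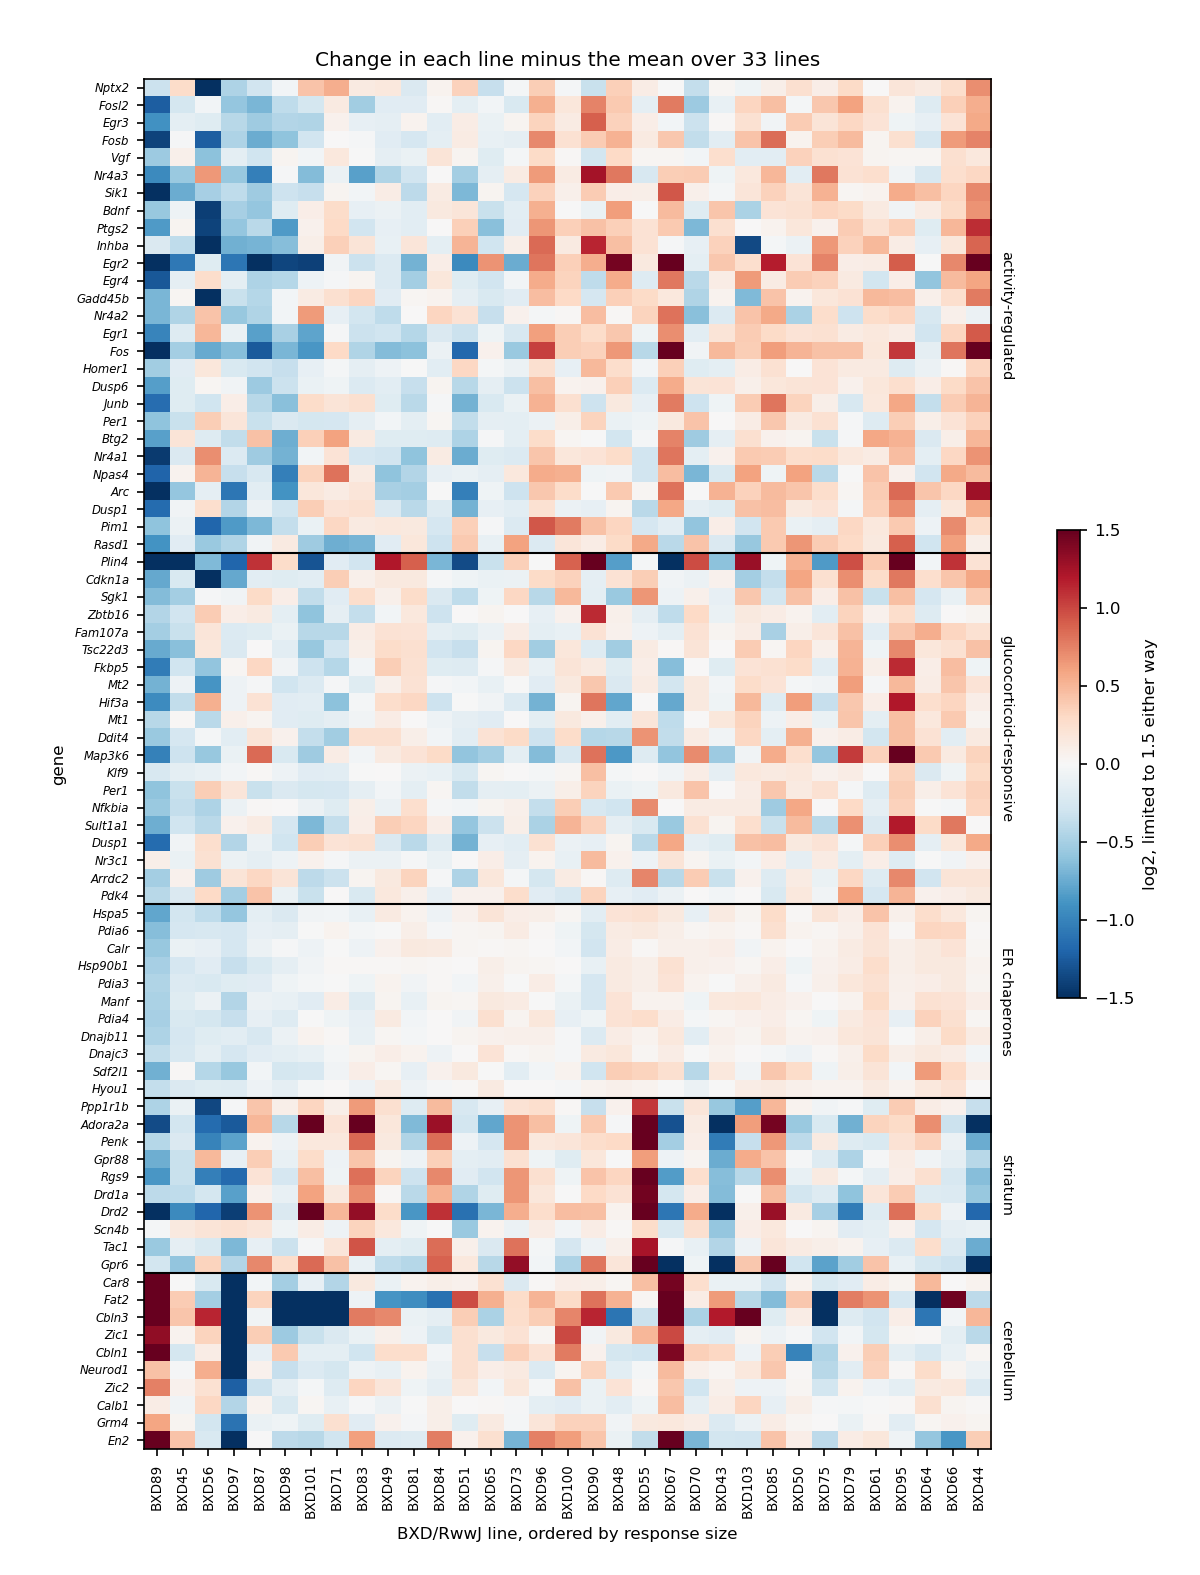
Change of each gene in each line minus its mean over the 33 lines (log2, colour limited to 1.5 either way). Columns are lines in increasing order of response size, rows are members past the threshold of 5 lists: activity-regulated, glucocorticoid-responsive, ER chaperones, striatum and cerebellum. The striatal and cerebellar rows form vertical bands in single lines such as BXD55, BXD97 and BXD89.

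Changes in cortex and in liver were related over the lines at few genes. For each of 12695 genes measured in both tissues the change in cortex was correlated with the change in liver over the 33 lines. Per the study's methods both tissues were taken from the same mice, so the pools of a line share animals and the SD session. At an adjusted p under 0.05 there were 0 genes in either direction (0% of those tested; 657 at an unadjusted p under 0.05, and 692 by Spearman correlation, where 0 passed as well). With 100000 permutations no p can go below 1e-05. With 10000000 permutations for the 29 genes at p of at most 0.001, 1 gene passed, Klf15 (adjusted permutation p = 0.0152). The liver SD library of BXD70 stood apart, with a GC slope of 0.209, a length slope of -0.427 and the fewest reads of all liver libraries (4681101). Without BXD70, a choice made after the data had been seen, 8 genes (0.063%) passed with 100000 permutations, 7 with r above 0 and 1 below. They included Klf15, Mt2 and Ddit4 (adjusted permutation p = 0.0254 each) and Fkbp5 and Per1 (0.0476 each). The median r over the 23 glucocorticoid genes was 0.439, with 21 above 0, and 0.383 without BXD56, BXD89 and BXD90 and 0.491 without BXD70. Over all genes it was 0.0132 and over the 21 activity-regulated genes measured in liver 0.0206, with 11 above 0.

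Klf15, a glucocorticoid-induced regulator of amino acid and lipid metabolism (mm9 6:90412570-90425232), changed in cortex by -0.15 (BXD101) to 0.78 (BXD56) and in liver by -0.25 (BXD96) to 0.36 (BXD95). Its correlation over 33 lines was r = 0.736 (permutation p = 1e-05, adjusted p = 0.0762) with Spearman's rho = 0.621 (permutation p = 0.00012), and r = 0.697 without BXD56 and BXD101. Fkbp5 gave r = 0.689 and rho = 0.647 (permutation p = 3e-05 and 6e-05), Per1, a clock gene with a hormone-responsive promoter, r = 0.673 and rho = 0.620 (permutation p = 3e-05 and 0.00019), Ddit4, an inhibitor of mTOR signalling, r = 0.666 and rho = 0.641 (permutation p = 3e-05 and 0.00011), and the metal-binding Mt2 r = 0.675 and rho = 0.568 (permutation p = 4e-05 and 0.00077). Without the 2 lines farthest in cortex these were 0.516 for Fkbp5, 0.670 for Per1, 0.616 for Ddit4 and 0.501 for Mt2. The strongest negative relation was that of Mlycd, malonyl-CoA decarboxylase, with r = -0.646 and rho = -0.702 (permutation p = 5e-05 and 4e-05, adjusted p = 0.0793 and 0.102), r = -0.603 without BXD44 and BXD83 and r = -0.645 without BXD70 (adjusted permutation p = 0.102). The lowest and highest changes of Mlycd were -0.50 (BXD90) and 0.64 (BXD83) in cortex, and -0.31 (BXD89) and 0.71 (BXD70, with the SD library that stood apart) among the liver pools. In cortex the lines lay in loose groups below and above 0, with 15 of 33 above it, and the relation within each group was not tested. Klhdc7a (r = -0.532) and Alpl, tissue-nonspecific alkaline phosphatase (r = -0.479), followed, with adjusted permutation p of 0.533 and 0.75.

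**Figure D5:**
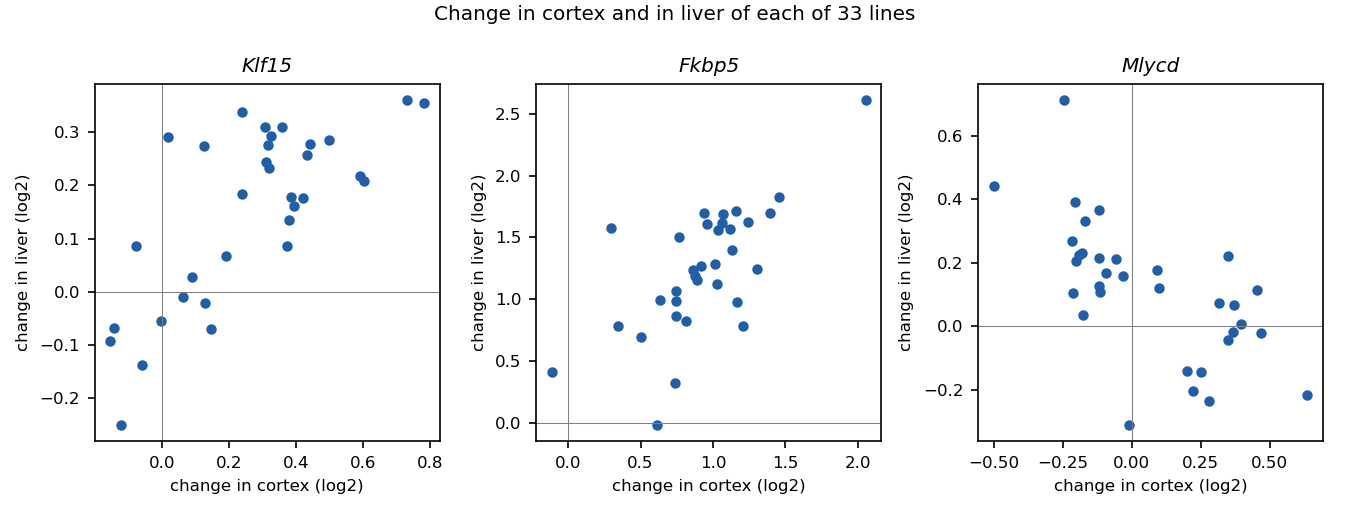
Change in cortex (horizontal, log2) against change in liver (vertical, log2) for Klf15, Fkbp5 and Mlycd. Each point is 1 of 33 lines. Pearson's r was 0.736, 0.689 and -0.646.

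ER chaperones fold secreted and membrane proteins and are induced together when unfolded proteins accumulate. Of 20 members 11 passed the F test, 8 without BXD90 but only 1, Hspa5, without the 3 lines, against 10.2%, 4.61% and 2.05% of all genes. In the mean response 19 of 20 rose. The list median ran from 0.245 in BXD89 to 0.898 in BXD61. The ER stress element, written as CCAAT and CCACG with 9 free bases between them, was searched on both strands. It was found in 5 of the 9 members past the threshold with a promoter entry and in 0.137% of the 27025 gene symbols. It is shown for the members described here, with the match in capitals.
Hspa5: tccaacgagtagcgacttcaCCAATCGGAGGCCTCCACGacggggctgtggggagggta
Pdia6: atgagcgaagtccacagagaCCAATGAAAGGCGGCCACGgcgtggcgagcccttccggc
Hsp90b1: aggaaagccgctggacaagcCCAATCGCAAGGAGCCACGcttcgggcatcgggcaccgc
Dnajc3: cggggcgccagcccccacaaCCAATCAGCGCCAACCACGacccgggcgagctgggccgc
Calr: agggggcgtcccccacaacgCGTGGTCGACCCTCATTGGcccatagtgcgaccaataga
The windows on GRCm38.p6 are chr2:34772005-34772063 (plus), chr12:17266471-17266529 (plus), chr10:86705618-86705676 (minus), chr14:118937807-118937865 (plus) and chr8:84847055-84847113 (minus). The match in Calr lies on the strand opposite to the gene, and Hsp90b1 held another on its opposite strand.

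Hspa5, the major chaperone of the ER lumen, lay between 7.40 and 8.18 (BXD97) log2 CPM in Ctr, median 7.63, and between 8.54 (BXD45) and 9.21 (BXD61) in SD, median 8.99, without overlap. Its change ran from 0.53 in BXD89 to 1.74 in BXD61, with a ratio to the noise of 3.57 (adjusted p = 1.6e-05, and 0.00132 without the 3 lines). The lowest change was in BXD89 also for Pdia6 (0.30), a disulfide isomerase, Calr (0.24), a lectin chaperone, Hsp90b1 (0.21), the ER paralogue of HSP90, and Dnajc3 (0.25), a co-chaperone. None of those 4 passed without the 3 lines (adjusted p = 0.0918, 0.452, 0.0887 and 0.241). Pairs of the 11 members had a median correlation of 0.827 over the 33 lines and 0.767 over the 30 and 0.472 with the activity-regulated genes. After overall response size had been removed, Hspa5 still passed (adjusted p = 0.0238), whereas Pdia6, Calr and Hsp90b1 did not (0.292, 0.362 and 0.537).

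Cytosolic heat shock proteins had 6 of 18 members past the threshold, 4 without BXD90 and 0 without the 3 lines, against 10.2%, 4.61% and 2.05% of all genes. Hsph1, an HSP110 chaperone, changed by 0.26 (BXD56) to 1.08 (BXD44), and the inducible Hspa1b, whose reads cannot be fully separated from its near-identical neighbour Hspa1a, by 0.01 (BXD56) to 2.20 (BXD64). Clock genes had 9 of 19 past the threshold, 6 without BXD90 and 4 without the 3 lines, against the same shares of all genes. Per2, a repressor of the clock loop, changed by 0.33 (BXD89) to 1.56 (BXD85), Dbp, an output factor, by -1.33 (BXD90) to -0.27 (BXD89), and Nr1d1, which encodes REV-ERB alpha, by -0.76 (BXD67) to 0.12 (BXD89), so that in BXD89 each of these was nearest to 0 or on the other side of it. All 3 passed without the 3 lines (adjusted p = 0.00132, 0.00404 and 0.0122). Cirbp fell on average, with a mean change of -1.22, with changes from -1.57 (BXD61) to -0.26 (BXD89), and Tra2a, a splicing factor, rose on average by 0.658. They were the 2 of 13 cold-inducible and splicing genes past the threshold, and Cirbp alone passed without BXD90 or without the 3 lines (adjusted p = 0.00019 and 0.0118). Lists close to or below the background were cholesterol synthesis and uptake (1 of 22), the respiratory chain (2 of 22, Cox5a and Uqcrq, both lowest in BXD90) and MHC and interferon genes (1 of 24, Cd74), and 0 members of these lists passed without BXD90.

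A different kind of variation concerned genes that rose in some lines and fell in others. The rule asked for at least 5 lines at a change of 0.3 or more and at least 5 at -0.3 or less. It was met by 64 of the 1517 genes, a description, since the share among all genes is not given here. Markers of striatum, which lies beneath the cortex, were prominent among them: 10 of 10 measured striatal genes passed the F test, 9 without BXD90 and 8 without the 3 lines, against 10.2%, 4.61% and 2.05% of all genes, with a median ratio to the noise of 3.35. Adora2a, an adenosine receptor of striatal neurons, lay between 0.43 and 3.45 log2 CPM in Ctr and between 0.82 and 3.52 in SD. Its change ran from -1.93 (BXD43) to 2.56 (BXD55), with 13 lines at 0.3 or more and 11 at -0.3 or less, and a mean of 0.05. Ppp1r1b, which encodes DARPP-32, changed by -1.35 (BXD56) to 1.07 (BXD55), Penk, proenkephalin, by -0.93 (BXD43) to 1.70 (BXD55), Rgs9, a regulator of G protein signalling, by -0.90 (BXD97) to 2.23 (BXD55), and Drd1a, the dopamine D1 receptor, by -0.75 (BXD97) to 1.51 (BXD55). BXD55 was thus highest for all 5. Summed over the 10 markers, striatal transcripts ranged from 277 to 564 CPM in Ctr, median 378, and from 275 to 584 in SD, median 400, and the change of the sum from -0.631 (BXD43) to 0.927 (BXD55). Pairs of these genes had a median correlation of 0.738 over the lines.

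The reciprocal F1 pools are of interest for these genes, since apart from the sex chromosomes and mitochondria they share a genotype. The change of Adora2a was -1.57 in BD-F1 and 1.35 in DB-F1, that of Penk -0.73 and 0.81, that of Rgs9 -0.63 and 0.98 and that of Drd1a -0.76 and 0.57. Within the repeated parental pools Adora2a changed by 0.08 and -0.20 in B6 and by 1.31 and 1.29 in D2. Its moderated noise, which rests mostly on other genes of similar level, was 0.230. The F1 pools therefore lay on opposite sides for striatal genes by more than the moderated noise. With the F1 pools added as a further repeated pair the number of genes past the threshold was 866 in place of 1517. Whether the striatal share of the tissue or its expression differed was not tested.

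Cerebellar markers, a list chosen after their values had been seen and therefore given as a description, gave wide changes in single lines. Fat2, a cadherin of granule cells, lay between -1.59 and 2.91 log2 CPM in 32 Ctr pools and at 6.08 in BXD97, and its SD level was highest in BXD89 (4.80). Its change was -7.84 in BXD97 and 6.40 in BXD89, with a median of -0.97. Cbln3, a granule cell cerebellin, changed by -6.30 in BXD97 and 5.06 in BXD89, and Car8, a Purkinje cell protein, by -3.08 and 1.52. BXD67 came next after BXD89, at 5.21 for Fat2 and 4.19 for Cbln3, with a response size of 1.05. Of the 11 measured markers, chosen for such values, 10 were among the 1517 genes, 10 passed without BXD90 and 8 without the 3 lines (10.2%, 4.61% and 2.05% of all genes). Their summed level was 599 CPM in the Ctr pool of BXD97 and 352 in the SD pool of BXD89, each the highest of its condition (medians 230 and 212). Other markers of non-cortical tissue were high in single pools: the pituitary hormone Gh was at 5.87 log2 CPM in the BXD100 Ctr pool against a median of -2.43, and the choroid plexus transporter Ttr ran from 0.86 to 7.14 (BXD90) in Ctr and from 1.57 to 8.57 (BXD79) in SD. The change of the cerebellar sum had a correlation of -0.0563 with response size over the 33 lines, a description, since both come from the same libraries. The part of cerebellar transcripts in the low response size of BXD97 and BXD89 was not tested.

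Counts for the remaining marker lists are given with those without BXD90 and without the 3 lines after them, against 10.2%, 4.61% and 2.05% of all genes. They were 8 of 9 for oligodendrocytes (8 and 6), 6 of 10 for meninges and fibroblasts (5 and 2), 4 of 6 for olfactory bulb and subventricular zone (3 and 1), 4 of 9 for excitatory neurons (1 and 1), 4 of 8 for hippocampus (1 and 1) and 4 of 10 for endothelial and mural cells (3 and 2). For the other lists they were 3 of 8 for astrocytes (3 and 3), 3 of 7 for choroid plexus (3 and 2), 2 of 8 for thalamus (1 and 1), 2 of 9 for microglia (1 and 0), 2 of 4 for Y-linked genes (0 and 0), 1 of 7 for interneurons (0 and 0), 1 of 6 for skeletal muscle (1 and 0), 1 of 2 for pituitary (1 and 0), 1 of 1 for hepatocytes (Ttr) (1 and 1) and 0 of 1 for erythroid cells (0 and 0). Opalin, a myelin protein of oligodendrocytes, fell on average, with changes from -1.88 (BXD95) to -0.02 (BXD89). Mag, an adhesion protein of myelin, was lowest in BXD43 (-0.58) and highest in BXD71 (0.29). Calb2, Cdhr1 and Th, markers of thalamus or olfactory bulb, had their highest change in BXD100 (2.21, 3.31 and 3.18).

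Nptxr was also among the 25 genes with the largest F, and it did not follow response size (r = 0.12 over the lines, a description). Nptxr, the receptor of neuronal pentraxins (mm9 15:79616783-79635196), lay between 1.09 and 5.30 log2 CPM in Ctr and between 0.46 and 5.22 in SD, and changed by -2.31 (BXD55) to 3.18 (BXD83), with 18 lines at 0.3 or more and 9 at -0.3 or less. Scand1, a SCAN domain protein encoded by a short gene of 68.4% GC on chromosome 2, changed by -1.91 (BXD90) to 1.17 (BXD103). The changes of Nptxr and Scand1 had a correlation of 0.898 over the 33 lines and 0.920 over the 30. Both genes passed in each of the 5 fits, yet the moderated noise of Nptxr was 0.234 although its D2 pools themselves gave -0.65 and 0.49. The ratio of Nptxr to the noise thus rests on a noise drawn mostly from other genes.

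The first principal component of the changes, 21% of their variance, was the contrast of BXD90 with the other lines. The score of BXD90 was 38.5, next came BXD56 at 11.2, and the lowest was BXD98 at -10.1. Across 11079 genes the weights had a Spearman correlation of 0.621 with transcript length and of -0.452 with GC content. Without BXD90 the first component held 12.2%. The genes of largest weight included Grin2b and Grin2a, subunits of the NMDA receptor, Kcnh7, a potassium channel, Erbb4, the neuregulin receptor, Rora, a nuclear receptor, Lnpep, Lcor and Ptar1, each highest in BXD90, together with Ttr. Grin2b (mm9 6:135679844-136123529) went from 3.0, the lowest Ctr level, to 5.42 log2 CPM in BXD90, a change of 2.41. Its other Ctr levels lay between 3.72 and 6.22, and its changes reached -0.74 in BXD97, so it passed without BXD90 (adjusted p = 3.6e-06) and without the 3 lines (adjusted p = 1e-05). In contrast Rora, Ptar1 and Lcor did not pass without BXD90 (adjusted p = 0.0771, 0.592 and 0.392). Of the 25 genes with the largest F, 10 were farthest in BXD90, among them Grin2b, Ago2, of the RNA-silencing complex, Hipk2, Igsf9b, Tmem178b, Vps13c, D10Bwg1379e, Scand1 and Lnpep. The BXD/TyJ line BXD05 had a Ctr library of the same kind, with a GC slope of 0.161 and a length slope of -0.193, and a change of 1.6 for Hipk2 and 1.39 for Ago2.

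A group of genes was listed because the study had named them for variants that segregate in the BXD lines. They were chosen on these samples, so their count is no independent evidence: 6 of 12 passed the F test, with and without BXD90 and without the 3 lines (10.2%, 4.61% and 2.05% of all genes). Pla2g4e, a phospholipase that makes N-acyl phospholipids (mm9 2:119992148-120071071), lay between 4.71 and 5.97 log2 CPM in Ctr, median 5.23, and between 2.70 (BXD85) and 5.26 (BXD50) in SD, median 3.60. All 33 changes were below 0, from -2.51 in BXD85 to -0.45 in BXD56. The largest gap between neighbouring lines, 0.485, lay between -1.35 and -0.86, with 20 lines below it and 13 above it. Of the pools that took no part in this spread, B6 gave -1.88 and -2.20, D2 -0.57 and -0.81, the F1 pools -0.92 and -1.03, BXD05 -1.66 and the other BXD/TyJ lines -0.64, -0.67 and -0.60, so B6 and BXD05 stood on 1 side of that gap and D2, F1 and the other lines on the other. Spread between lines was larger in SD (0.935) than in Ctr (0.405, adjusted p = 4.9e-08). The other members past the threshold were Mlycd (-0.50 to 0.64), Homer1, a synaptic scaffold (0.35 in BXD89 to 1.36 in BXD90), Acot11, an acyl-CoA thioesterase (-0.06 to 0.87), Wrn and Gabra2.

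The parental strains differed in their response at 4 genes, 0.0269% of 14896 (limma contrast in the same fit, adjusted p under 0.05; 1126 at an unadjusted p under 0.05). Expressed as D2 minus B6, the difference in change was 1.35 ± 0.12 (SE, 2 pools each) for Pla2g4e (adjusted p = 5.9e-06), 1.36 ± 0.23 for Adora2a (adjusted p = 0.0288), -0.590 ± 0.083 for Crocc, a protein of the ciliary rootlet (adjusted p = 0.00468), and -0.534 ± 0.084 for Rbm28, an RNA-binding protein of the nucleolus (adjusted p = 0.0151). Without a variance trend 0 genes passed (925 at an unadjusted p under 0.05). With the F1 pools as a further repeated pair Pla2g4e and Crocc passed and Adora2a and Rbm28 did not. Adora2a was lost without either replicate 2 pool or without D2 replicate 1, Crocc and Rbm28 without B6 replicate 1 or D2 replicate 1, and Pla2g4e passed without any of the 4 pools. Crocc changed by 0.39 and 0.25 in B6 and by -0.23 and -0.31 in D2, and Rbm28 by 0.97 and 0.76 against 0.29 and 0.38, without overlap in either.

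Over all genes, spread between lines was larger in Ctr at 357 genes (2.4%) and larger in SD at 118 (0.792%; Pitman-Morgan test, adjusted p under 0.05). This balance rested on BXD56, BXD89 and BXD90: without them there were 34 genes with the larger spread in Ctr and 108 in SD. The median ratio of the standard deviation between lines in SD to that in Ctr went from 0.952 to 1.05. Beside Sgk1 and Pla2g4e, Slc2a1, the glucose transporter of the blood-brain barrier, had the larger spread after SD (0.234 against 0.0954, adjusted p = 0.000431), as did the astrocytic factor Rfx4 (0.303 against 0.125, adjusted p = 0.000101). Ptgs1, cyclooxygenase 1 (0.383 in Ctr against 0.107 in SD, adjusted p = 2.7e-07), and Socs3, an inhibitor of cytokine signalling (0.440 against 0.157, adjusted p = 0.000123), had the larger spread in Ctr. These 4 genes were named after their values had been seen.

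Departures from the mean response had correlations of at most 0.229 between related pools. Over genes with a mean of at least 2 log2 CPM, the correlation of those departures was 0.193 between the B6 pools, 0.106 between the D2 pools and 0.0751 between the F1 pools. Among the 3 pairs of closely related lines it was 0.229 for BXD48 and BXD96, -0.107 for BXD65 and BXD97 and -0.0361 for BXD73 and BXD103. Over all 528 pairs of the 33 lines it ranged from -0.547 to 0.470 with a median of -0.0265 and a 90th percentile of 0.112. Of the 528 pairs, 3.03% reached the value of the B6 pools, 10.98% that of the D2 pools and 15.72% that of the F1 pools. The value of BXD48 and BXD96 was reached by 1.7%, that of BXD65 and BXD97 by 78.22% and that of BXD73 and BXD103 by 54.55%. For single genes the related lines could be close, as for Pla2g4e (-1.89 and -1.76 in BXD48 and BXD96, -0.86 and -0.62 in BXD65 and BXD97, -2.15 and -1.94 in BXD73 and BXD103), or apart, as for Nptxr (1.96 and 0.57, 0.96 and -0.65, 0.49 and 2.17).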

How the data were processed

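Cortex and liver RNA was sequenced by the authors as stranded poly(A) libraries, with 1 pool per line and condition. The deposited tables hold log2 CPM per gene: per the study's methods and the submitters' processing notes, reads were aligned to mm9 with STAR and counted per RefSeq gene with HTSeq, genes with low mean counts were removed, and edgeR (TMM factors, prior count) gave the log2 values the authors deposited. Versions are not given in the sources used here. All values in the 4 tables corresponded to whole reads within 0.02 of a read (100%), which gave the depths. All columns matched a sample (0 unmatched).

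Changes (SD minus Ctr; the 2 pools of a line share its genotype, which is where the pairing comes from) were fitted in limma 3.58.1 (R 4.3.3) with strain as factor, the 4 parental pools giving 2 residual degrees of freedom, and empirical Bayes with a variance trend (18.6 prior degrees of freedom). The F test compared the 33 lines, with Benjamini-Hochberg adjustment over 14896 genes. The mean response was tested on the 33 changes, spreads by the Pitman-Morgan test and correlations by two-sided permutation (100000) in Python 3.11.15, numpy 2.4.6 and scipy 1.17.1. Scripts were tested on simulated data. GC content and length came from an mm9 annotation (13772 genes, 92.5%, matched), promoter sequences from RefSeq (GRCm38.p6). Principal components used genes with a mean of at least 2 log2 CPM. Named genes were the 25 with the largest F, the 5 with the largest standard deviation, up to 10 of the 64 with both directions, up to 4 examples per list, 10 per principal component, and 5 positive and 3 negative in liver; other names were added after their values were seen. The lines and lists were chosen with earlier results of these data known. Per the study's methods the repeated parental pools came from mice studied early and late in its course, so the noise also holds differences over that time, and p-values measure the spread between pools. Alternatives were median centring, quantile normalization, voom weights on recovered reads, no variance trend, filters and left-out pools. Results for some genes are not reported here.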

Additional observations from a re-analysis of the deposited data

Results flagged for a closer look

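Among 28 genes examined over the 4 BXD/TyJ lines, 3 had a line far from the others by Dixon's ratio (gap to the nearest value over the range, critical value 0.829), and chance flags about 1 group in 20. The ratio was 0.938 for Pla2g4e (change of -1.66 in BXD05 against -0.67 to -0.60), 0.839 for Ago2 (1.39 in BXD05 against 0.37 to 0.54) and 0.866 for Hipk2 (1.6 in BXD05 against 0.01 to 0.22). The Ctr library of BXD05 had a GC slope of 0.161 log2 per 10 percentage points, above that of all 33 lines, and the part of this in the Ago2 and Hipk2 values was not tested.

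The parental strains differed in their change, D2 minus B6, at Pla2g4e (1.349), Adora2a (1.357), Crocc (-0.590) and Rbm28 (-0.534) in the limma contrast, with both D2 pools on 1 side of both B6 pools in each case. For Adora2a the reciprocal F1 pools gave -1.57 (BD-F1) and 1.35 (DB-F1).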

How the results depend on the processing

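Of 1517 genes at which lines differed, 0 passed without a variance trend (1266 at an unadjusted p under 0.05), where only 1.85 prior degrees of freedom moderated the 2 residual ones. Counts were 956 after quantile normalization, 866 with the F1 pools as a further repeated pair, 687 without BXD90, 306 without BXD56, BXD89 and BXD90, and 446 of 13772 after correction for GC content and length (435 shared with the 1517). Counts within 1.5 times were 1631 (median centring), 1751 (mean of at least 0 log2 CPM), 1822 (voom weights), 1608 (without BXD79, BXD85 and BXD101), 1461 (without BXD96, BXD97 and BXD103), 1408 (without BXD89) and 1318 (response size removed). Leaving out 1 parental pool gave 1056 to 2098. The cause of these moves was not tested. Of 99 named genes, 77 passed without BXD90, 60 without the 3 lines, 60 of 96 after GC correction and 0 without a trend. The parental difference had 0 genes without a trend, 8 after median centring, 2 with the F1 pools, 8 with a mean of at least 0, and 2 to 52 when 1 parental pool was left out. Spread differed between conditions at 475 genes and at 142 without the 3 lines, where the balance turned. The correlation with liver passed at 0 genes in each alternative except with 10000000 permutations (1) and without BXD70 (8). Pairing SD with Ctr by line gave 10951 genes for the mean response, and without the replicate block 9652, within 1.5 times; the other alternatives gave 10320 to 11263. The standard deviation of response size was 0.180 and lay between 0.111 (root mean square of the changes, in which BXD90 was the highest line) and 0.186. It was 0.127 with BXD89 also left out of the means on which slopes were taken, and 0.130 over the other 32 values as they stood.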
